A study of Mus musculus with 6 samples.

Results

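The genes described here encode the route by which noradrenaline from sympathetic nerves acts on brown fat: 52 of the 12966 genes in the table. They were picked out by their symbols and comprise every listed adrenergic receptor (5 genes), numbered adenylyl cyclase (6), phosphodiesterase (19), subunit of protein kinase A (PKA, 6) and numbered A-kinase anchoring protein (AKAP, 10), with the G protein subunit genes Gnas, Gnai1, Gnai2 and Gnai3 and the transcription factor genes Creb1 and Crem. RNA was sequenced from brown adipose tissue, taken at 10 weeks of age from males of the C57BL/6J strain. All mice carried floxed Bscl2, the gene of seipin, a protein of the endoplasmic reticulum that acts in lipid droplet formation. The 3 control libraries (Ctrl) came from Bscl2 f/f mice, and the 3 BKO libraries from Bscl2 f/f mice that also carried Ucp1-Cre, whose promoter is active in brown adipocytes. Ctrl mice carried no Cre, so an effect of the transgene and the loss of Bscl2 cannot be told apart. Values are FPKM, fragments scaled to transcript length and library size, so levels can be set against each other between genes. Nothing in the labels ties each library to its own animal. The p-values therefore reflect the spread among these 6 libraries, part of which may be technical.

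Noradrenaline binds beta-adrenergic receptors, which activate the stimulatory G protein encoded by Gnas. The G protein turns on adenylyl cyclase, cyclic AMP releases the catalytic subunits of PKA from their regulatory subunits, and PKA then phosphorylates lipases, droplet coat proteins and the transcription factor CREB. Phosphodiesterases break down cyclic AMP, inhibitory G proteins restrain the cyclases, and AKAPs hold PKA at particular sites in the cell. In brown adipocytes this route drives lipolysis and heat production, with Adrb3, the receptor typical of adipocytes, at its head.

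In all values given by library the order is replicates 1, 2 and 3. Bscl2 stood at 116, 104 and 106 FPKM in Ctrl and at 16.5, 16.9 and 18.9 FPKM in BKO, which leaves 16.0% of the Ctrl mean and matches the labels (limma with Benjamini-Hochberg adjusted p = 3.95e-05). The 11 brown adipocyte markers examined were above 0 in every library and summed to between 20240 and 21110 FPKM in Ctrl and between 20780 and 23120 FPKM in BKO. Fabp4, at means of 10920 and 11400 FPKM, weighed most in these sums. Cox7a1 and Cox8b were higher in every BKO library, Cidea was lower in every one, and the other markers overlapped. None of the 11 passed at an adjusted p below 0.05. The 13 macrophage markers listed summed to between 60.8 and 97.9 FPKM in Ctrl and between 164.8 and 209.9 FPKM in BKO, with none at 0 in any library. Of these markers, 10 lay higher in every BKO library than in every Ctrl library among the 12 tested, where 9.06% of all tested genes did. Lyz2 and Tyrobp passed at an adjusted p below 0.05 (limma adjusted p = 0.0195 and 0.044). Cd163, the marker below the level for testing, was lower in every BKO library. The 8 preadipocyte and fibroblast markers listed summed to between 192.1 and 229.3 FPKM in Ctrl and between 229.7 and 262.3 FPKM in BKO. Of these, Pdgfra and Cd34 were higher in every BKO library. The others overlapped between the groups, and Pi16 and Dlk1 had lower means in BKO. None of the 7 tested passed at an adjusted p below 0.05. The 13 skeletal muscle markers overlapped between the groups but ranged from 163.2 FPKM in Ctrl-2 to 754.3 FPKM in Ctrl-1, with 528.4 FPKM in BKO-2. In BKO-3 no value lies between 0 and 0.486 FPKM, whereas each other library has from 341 to 632 such values, so genes low in BKO-3 may not be listed. Library depth is not known from FPKM. In whole tissue, fewer cells of a type and less RNA per cell cannot be told apart.

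None of the cyclic AMP genes differed between BKO and Ctrl beyond the test's threshold. Of the 52, 47 averaged 1 FPKM or more across all libraries, which was the condition for testing, and 0 passed at a limma adjusted p below 0.05, where 0.167% of all 11397 tested genes passed. At an unadjusted p below 0.05 there were 2, Prkar2b and Pde3b, both with lower means in BKO. That is 4.26% of those tested, against 10.2% of all tested genes. The count was 1 without Ctrl-1 (2.17% against 9.68% of all genes), 1 without Ctrl-2 (2.13% against 6.01%) and 5 without BKO-3 (10.6% against 13.8%). With array weights it was 8, or 17.0% against 16.6% of all genes, so the lower share of members was not found there. The 47 log2 changes ran from -0.31 for Pde3b to 0.32 for Crem on the log2(FPKM + 1) scale, with a median of -0.05, where the median over all tested genes was 0.01. The difference was negative for 32 members and positive for 15, while over all 11397 tested genes it was negative for 5521 and positive for 5876. For 40 of the 47 (85.1%) the 95% interval of the difference lay within 1.5-fold in either direction, as it did for 85.8% of all tested genes, and for all 47 it lay within 2-fold on this scale. Larger changes than these on this scale are outside the intervals, while smaller ones are not shown to be absent. The scale understates changes of low members. Pde3a, for example, had an FPKM ratio of 0.708 with a log2 difference of -0.27.

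**Figure D1:**
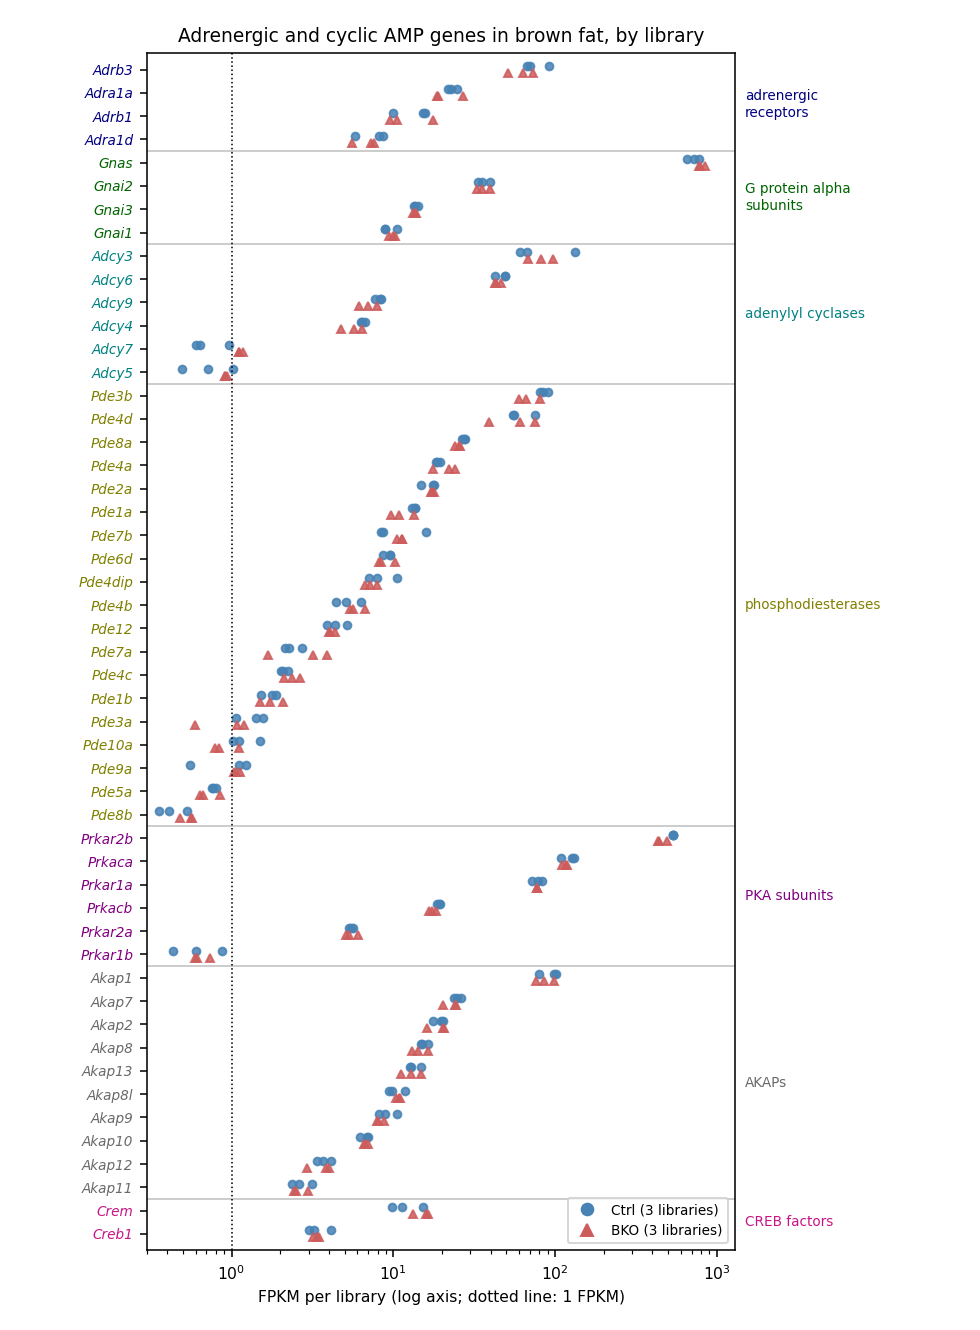
FPKM of 51 of the 52 genes in each of the 6 libraries on a log axis, grouped by role, with circles for Ctrl, triangles for BKO and a dotted line at the 1 FPKM mean needed for testing. Levels run from under 1 FPKM to 843 FPKM for Gnas in BKO-2, and the symbols of the groups lie close together for most genes.

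By mean FPKM the PKA regulatory subunit Prkar2b was the most abundant member after Gnas, and it was the tested member with the lowest p. Prkar2b, the type II beta regulatory subunit that predominates in fat, stood at 540, 538 and 535 FPKM in Ctrl and at 441, 435 and 496 FPKM in BKO. Every BKO value was under every Ctrl value, and the controls were almost alike (538 ± 2.96 FPKM in Ctrl and 458 ± 33.8 FPKM in BKO, SD, n = 3 per group, a ratio of 0.851). The log2 difference of -0.23 (SE 0.0765) did not pass over all genes (limma with Benjamini-Hochberg adjusted p = 0.379). Groups that do not overlap were found in 3 members below Ctrl and 1 above, 6.38% and 2.13% of the 47 tested, while 6.82% of all tested genes lay below and 9.06% above.

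Prkar1a, the type I alpha regulatory subunit, stood at 79.0, 72.2 and 83.5 FPKM in Ctrl and at 77.5, 78.0 and 77.8 FPKM in BKO. Its BKO values lay inside the Ctrl range, and its 95% interval ran from -0.17 to 0.16 on the log2 scale. Prkaca, the main catalytic subunit, stood at 127, 132 and 109 FPKM in Ctrl and 119, 117 and 111 FPKM in BKO, again within the range of the controls. Prkacb, the second catalytic subunit, stood at 19.2, 19.6 and 18.6 FPKM in Ctrl and 17.3, 16.6 and 18.3 FPKM in BKO. These groups do not overlap, but the difference of -0.13 did not pass (limma adjusted p = 0.581). Prkar2a averaged 5.48 and 5.51 FPKM in Ctrl and BKO. Prkar1b, a form typical of neurons, averaged 0.636 and 0.647 FPKM and was below the level for testing.

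Prkar2b made up 86.4%, 87.3% and 85.7% of the summed FPKM of the 4 regulatory subunits in Ctrl, and 84.1%, 83.8% and 85.5% in BKO. The lowest Ctrl share and the highest BKO share were thus 85.7% and 85.5%. Regulatory transcripts exceeded catalytic ones by a ratio of 4.42 ± 0.434 in Ctrl and 4.07 ± 0.364 in BKO (SD, n = 3 per group), a difference smaller than the spread. Prkaca gave 86.4% ± 0.947 of the catalytic transcripts in Ctrl and 86.9% ± 0.922 in BKO. These shares are descriptions, and no test was made of them.

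Upstream sequences of Prkar2b, Prkar1a and Prkaca are shown because these are the most abundant PKA subunit genes and because Prkar2b and Prkar1a bind the same catalytic subunits, while BKO lay below Ctrl for the one and among the Ctrl values for the other. Each is the 250 bases before an annotated start, 5′ to 3′ on the gene's strand, from RefSeq on GRCm38.p6, a later build than the authors' NCBIM37. The windows are chr12:32061278-32061527 (minus strand) for Prkar2b, chr11:109650699-109650948 (plus strand) for Prkar1a and chr8:83972728-83972977 (plus strand) for Prkaca. Capitals mark TGACG and its reverse complement CGTCA, the core of the cyclic AMP response element bound by CREB. They join as TGACGTCA where the whole palindrome is present.
Prkar2b: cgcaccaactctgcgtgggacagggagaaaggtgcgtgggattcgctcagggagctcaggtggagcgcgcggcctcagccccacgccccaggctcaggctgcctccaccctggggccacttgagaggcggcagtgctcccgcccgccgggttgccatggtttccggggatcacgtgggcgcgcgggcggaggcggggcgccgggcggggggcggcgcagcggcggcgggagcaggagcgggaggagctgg
Prkar1a: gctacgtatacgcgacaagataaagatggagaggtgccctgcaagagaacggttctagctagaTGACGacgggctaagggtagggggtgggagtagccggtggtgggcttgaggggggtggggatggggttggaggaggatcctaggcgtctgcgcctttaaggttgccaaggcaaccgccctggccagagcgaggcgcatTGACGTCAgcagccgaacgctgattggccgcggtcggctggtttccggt
Prkaca: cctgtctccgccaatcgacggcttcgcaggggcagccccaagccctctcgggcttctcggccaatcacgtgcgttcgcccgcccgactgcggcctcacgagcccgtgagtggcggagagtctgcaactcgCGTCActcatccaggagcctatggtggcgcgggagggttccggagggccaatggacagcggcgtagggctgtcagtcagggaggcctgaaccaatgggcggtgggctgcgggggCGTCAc
The start shown for Prkar2b and Prkaca is the most upstream of those annotated, while the Prkar1a window was picked for its letters, as the single one of its 6 with the whole palindrome. The most upstream Prkar1a window, chr11:109648773-109649022, holds the core 0 times, as does the Prkar2b window shown. The Prkaca window holds the core 2 times. Promoter windows were matched for 39 of the 52 genes, 82 windows in all. TGACGTCA was present in 1 of the 82 (1.2%), against 1.55% of all 32851 windows, and the TGACG core on either strand in 17 (20.7%), against 17.77% of all. The core also lies inside the palindrome. Such matches describe letters in a window and not binding.

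The adrenergic receptors were led by Adrb3. It stood at 70.4, 92.4 and 67.5 FPKM in Ctrl and at 73.2, 51.1 and 63.5 FPKM in BKO. The groups overlap, since BKO-1 exceeds 2 of the Ctrl libraries. The means were 76.8 ± 13.6 and 62.6 ± 11.1 FPKM (SD, n = 3 per group), and the log2 difference of -0.29 had a 95% interval from -0.67 to 0.09 (limma adjusted p = 0.597).

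Adrb1, a beta receptor also found on precursor cells and in the heart, stood at 15.8, 15.2 and 9.93 FPKM in Ctrl and 17.6, 9.58 and 10.6 FPKM in BKO. It varied 1.83-fold between libraries, with the high values in both groups. The summed preadipocyte and fibroblast markers were higher in every BKO library, and their part in the Adrb1 values was not tested. The highest Ctrl sum was 229.3 FPKM and the lowest BKO sum 229.7 FPKM. The alpha-1 receptors, which signal through calcium and not through cyclic AMP, were also present. Adra1a averaged 23.1 ± 1.62 and 21.5 ± 4.67 FPKM in Ctrl and BKO, making it the second most abundant adrenergic receptor, and Adra1d averaged 7.54 ± 1.55 and 6.79 ± 1.09 FPKM. These 4 receptors had negative log2 differences, from -0.29 to -0.11, and none passed the test.

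**Figure D2:**
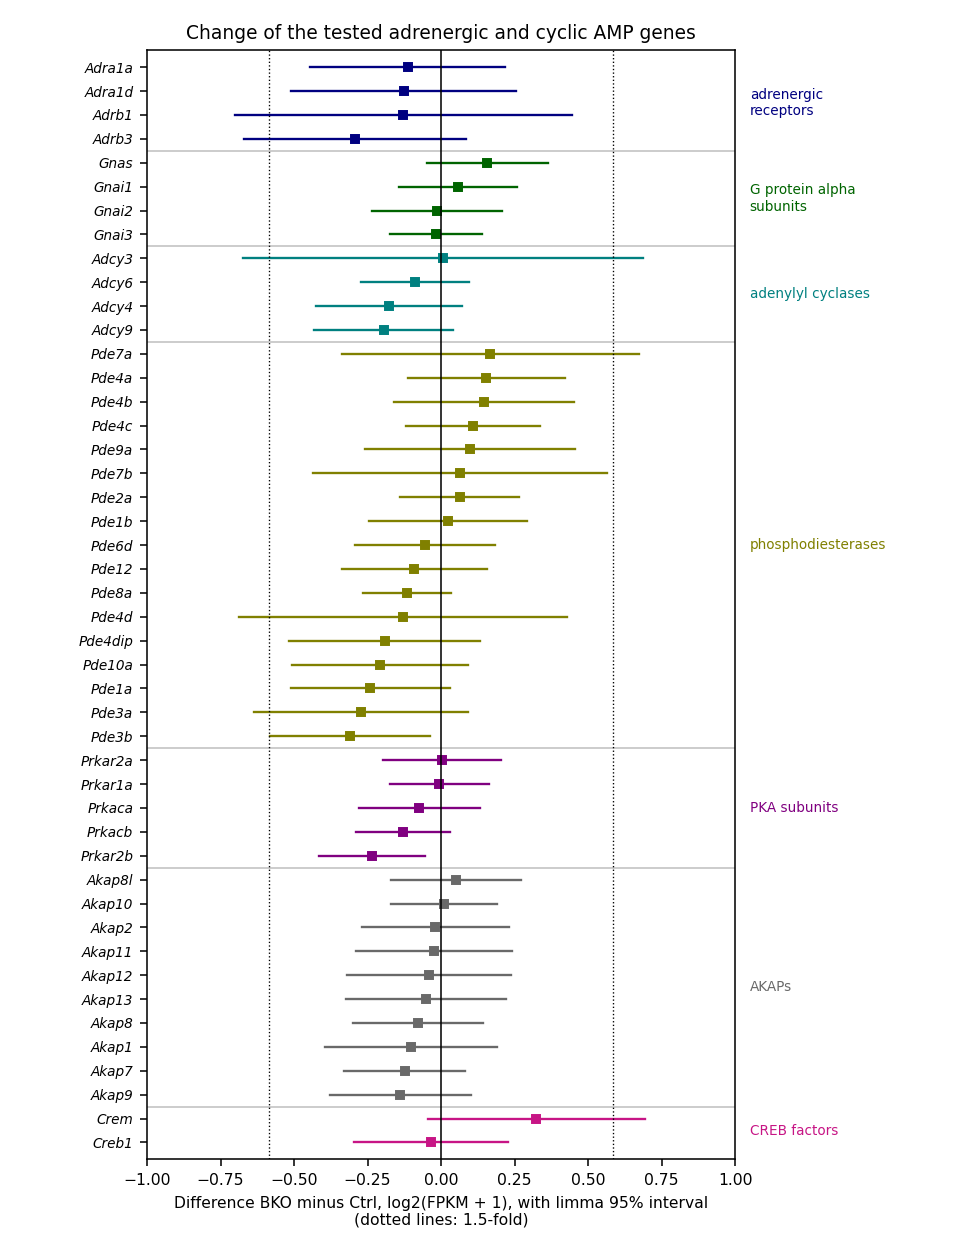
Difference between BKO and Ctrl on the log2(FPKM + 1) scale for 46 of the 47 tested genes, by role, with squares for the limma estimate, bars for its 95% interval and dotted lines at 1.5-fold. The intervals of Prkar2b and Pde3b exclude 0 before adjustment, and 39 of the intervals drawn lie inside the dotted lines.

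Among G protein genes, Gnas was the most abundant member and ranked 95 of 12966 genes by mean FPKM. It stood at 659, 728 and 780 FPKM in Ctrl and at 788, 843 and 782 FPKM in BKO. The groups do not overlap, but the gap between Ctrl-3 and BKO-3 is small, and the log2 difference of 0.16 (SE 0.0874) did not pass (limma adjusted p = 0.599). The Gnas locus has several promoters and an antisense partner, and the library kit does not mark strand, so the row can hold reads of more than the stimulatory subunit. The 3 inhibitory subunits had differences between -0.02 and 0.06. Gnai2 averaged 36.3 and 35.9 FPKM in Ctrl and BKO, Gnai3 13.8 and 13.6 FPKM, and Gnai1 9.45 and 9.86 FPKM. Gnas exceeded their sum 12.2-fold ± 1.73 in Ctrl and 13.6-fold ± 0.209 in BKO.

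Of the adenylyl cyclases, Adcy3 and Adcy6 together made up 88.8% of the cyclase FPKM in Ctrl and 89.6% in BKO. Adcy3 stood at 66.8, 60.6 and 134 FPKM in Ctrl and at 68.6, 82.1 and 98.0 FPKM in BKO. The widest gap was within Ctrl, where Ctrl-3 had about the level of the other controls summed, so the 95% interval of its difference was wide (-0.68 to 0.69). Adcy6, a cyclase inhibited by calcium, averaged 46.9 ± 3.65 and 44.0 ± 1.87 FPKM in Ctrl and BKO. Adcy9 stood at 8.46, 8.30 and 7.67 FPKM in Ctrl and 6.97, 6.14 and 7.92 FPKM in BKO, with BKO-3 inside the Ctrl range (log2 difference -0.20, limma adjusted p = 0.573). Adcy4 averaged 6.47 and 5.64 FPKM in Ctrl and BKO.

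Adcy7 and Adcy5 had means under 1 FPKM and were not tested. Adcy7, a cyclase known from blood cells, stood at 0.964, 0.641 and 0.606 FPKM in Ctrl and at 1.18, 1.12 and 1.12 FPKM in BKO. All BKO libraries lay above all Ctrl libraries, and with the filter removed its log2 difference was 0.31 (limma adjusted p = 0.389). The summed macrophage markers also lay higher in every BKO library, and their part in the Adcy7 value was not tested. Adcy5 averaged 0.744 ± 0.267 and 0.922 ± 0.013 FPKM in Ctrl and BKO.

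Phosphodiesterases formed the largest family, with 19 listed genes. Of these, Pde12, Pde4dip and Pde6d carry the name but do not hydrolyse cyclic AMP or cyclic GMP. Pde3b, the insulin-responsive phosphodiesterase of adipocytes, was the most abundant. It stood at 84.4, 81.1 and 90.1 FPKM in Ctrl and at 66.1, 59.6 and 81.4 FPKM in BKO. BKO-1 and BKO-2 lay below the controls, while BKO-3 lay just above the lowest control, Ctrl-2. The means were 85.2 ± 4.56 and 69.0 ± 11.2 FPKM (SD, n = 3 per group), a ratio of 0.810. The log2 difference was -0.31 (95% interval -0.58 to -0.04) and did not pass over all genes (limma adjusted p = 0.438). Pde3b gave 34.0% ± 0.958 of the cyclic nucleotide phosphodiesterase FPKM in Ctrl and 29.9% ± 3.79 in BKO. Its relative Pde3a, known from heart and platelets, was near the level for testing, at 1.35 ± 0.259 and 0.956 ± 0.320 FPKM.

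The 4 cyclic AMP-specific Pde4 genes overlapped between the groups. Pde4d stood at 56.1, 55.3 and 75.6 FPKM in Ctrl and 38.9, 75.4 and 60.8 FPKM in BKO, so that BKO held the lowest value while Ctrl-3 and BKO-2 shared the highest. Pde4b, a form induced by cyclic AMP and also prominent in leukocytes, stood at 4.42, 6.31 and 5.08 FPKM in Ctrl and 5.66, 5.39 and 6.66 FPKM in BKO, with overlapping groups. Pde4a averaged 18.8 ± 0.559 and 21.3 ± 3.32 FPKM in Ctrl and BKO, and Pde4c 2.12 ± 0.111 and 2.37 ± 0.261 FPKM. None of the 4 passed.

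Among the other phosphodiesterases, Pde8a, which has a high affinity for cyclic AMP, came next in abundance after Pde3b and Pde4d. It stood at 26.6, 27.7 and 27.4 FPKM in Ctrl and 23.9, 25.4 and 25.8 FPKM in BKO. Its groups do not overlap, with a difference of -0.12 (limma adjusted p = 0.597). Pde1a, a calcium and calmodulin-activated form, stood at 13.7, 13.0 and 13.6 FPKM in Ctrl and 10.8, 9.70 and 13.5 FPKM in BKO, where BKO-3 again lay among the controls. Pde2a, stimulated by cyclic GMP, averaged 16.8 and 17.5 FPKM, and Pde7b 11.0 ± 4.22 and 11.1 ± 0.483 FPKM. Pde4dip, which encodes myomegalin, a protein abundant in muscle, was highest at 10.5 FPKM in Ctrl-1, the library with the most muscle transcripts. It was lowest at 6.67 FPKM in BKO-2, which was second in muscle transcripts. The part of muscle in the Pde4dip values was not tested. Pde12, which degrades oligoadenylates, averaged 4.51 and 4.15 FPKM in Ctrl and BKO, and Pde6d, which binds prenylated proteins, 9.25 and 8.91 FPKM. The remaining cyclic nucleotide phosphodiesterases, Pde1b, Pde5a, Pde7a, Pde8b, Pde9a and Pde10a, had means under 3 FPKM.

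**Figure D3:**
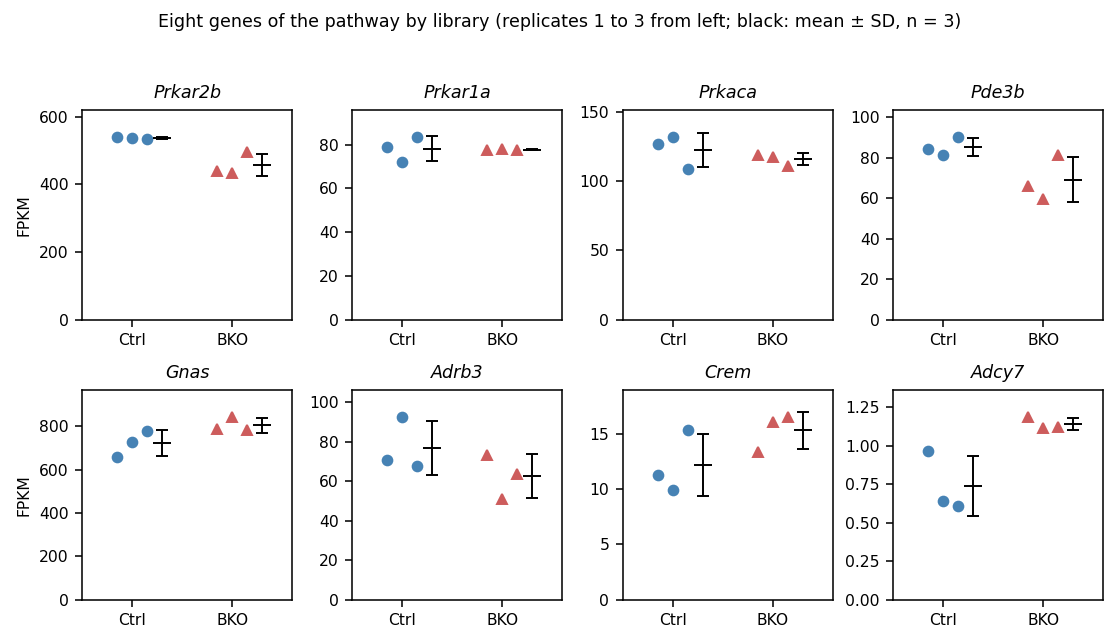
FPKM in each library for 8 genes of the pathway, with Ctrl as circles, BKO as triangles, replicates 1 to 3 from left to right, and black bars for the mean ± SD (n = 3). Prkar2b is lower in every BKO library, Gnas and Adcy7 are higher in every one, and the other 5 genes overlap.

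The 10 AKAP genes had differences from -0.14 to 0.05, and for all 10 the 95% interval lay within 1.5-fold. Akap1, which anchors PKA at the outer mitochondrial membrane, stood at 98.5, 102 and 79.8 FPKM in Ctrl and 85.7, 76.4 and 98.6 FPKM in BKO. It made up 46.7% ± 3.51 of the AKAP FPKM in Ctrl and 46.0% ± 2.27 in BKO. Akap9, an anchor at the Golgi and centrosome, had the largest difference among AKAPs, with 10.6, 8.94 and 8.17 FPKM in Ctrl and 8.01, 7.95 and 8.81 FPKM in BKO. Its groups overlap (log2 difference -0.14, limma adjusted p = 0.696). Akap7 averaged 25.0 and 22.9 FPKM in Ctrl and BKO, and Akap12, known as gravin, which binds beta receptors, averaged 3.72 and 3.60 FPKM. Akap2, which shares its locus with Palm2 so that reads could be split between them, averaged 19.2 and 19.0 FPKM. Akap8 and Akap8l, related nuclear proteins, averaged 15.4 and 14.6 FPKM and 10.4 and 10.7 FPKM, while Akap13, an exchange factor for small GTPases, averaged 13.5 and 13.0 FPKM and Akap11 2.70 and 2.64 FPKM. Akap10 varied least between libraries of the 10, at 6.71 ± 0.382 and 6.76 ± 0.231 FPKM.

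Of the transcription factor genes, Crem, whose short form ICER is a repressor induced by cyclic AMP, had the largest positive difference of all tested members. It stood at 11.3, 9.87 and 15.3 FPKM in Ctrl and 13.3, 16.0 and 16.5 FPKM in BKO. Ctrl-3 lay among the BKO values, and the difference of 0.32 (SE 0.157, 95% interval -0.04 to 0.69) did not pass (limma adjusted p = 0.543). FPKM per gene do not separate ICER from the longer forms. Creb1, the activator that PKA phosphorylates, stood at 3.26, 3.03 and 4.14 FPKM in Ctrl and at 3.20, 3.36 and 3.49 FPKM in BKO. These BKO values lay within the Ctrl range.

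The members shared no single order of libraries. Of the 52, 13 were highest in Ctrl-1, 13 in BKO-3, 12 in Ctrl-3, 8 in Ctrl-2, 4 in BKO-1 and 2 in BKO-2. In that order the shares of members were 25%, 25%, 23.1%, 15.4%, 7.69% and 3.85%. Over all tested genes they were 22.8%, 17.7%, 13.5%, 9.27%, 14.3% and 22.4%. Adcy3, Pde4d, Pde7b and Creb1 were among those highest in Ctrl-3, with Pde7b at 15.8 FPKM there and at 8.42 and 8.66 FPKM in the other controls. Ppargc1a and Dio2, induced by cyclic AMP in brown adipocytes, were set beside them after their values were seen. Ppargc1a, a coactivator of thermogenic genes, stood at 11.7, 9.62 and 38.7 FPKM in Ctrl and at 12.8, 38.4 and 28.4 FPKM in BKO. Dio2, which makes active thyroid hormone in the cell, stood at 60.7, 67.8 and 137 FPKM in Ctrl and at 59.1, 86.4 and 96.2 FPKM in BKO. For Adcy3, Pde4d, Crem, Ppargc1a and Dio2 alike, the 3 lowest libraries were Ctrl-1, Ctrl-2 and BKO-1. That held for 11 of the 52 members (21.2%), for 5 of the 20 cyclic AMP-induced genes (25.0%) and for 6.18% of all tested genes, an order picked after the values were seen and not tested. Other induced genes differed, since Fos, Junb, Dusp1 and Nr4a2 were highest in BKO-1, at 54.2, 46.9, 92.1 and 49.8 FPKM. Adrb1 did not share that order, being high in exactly those 3 libraries.

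**Figure D4:**
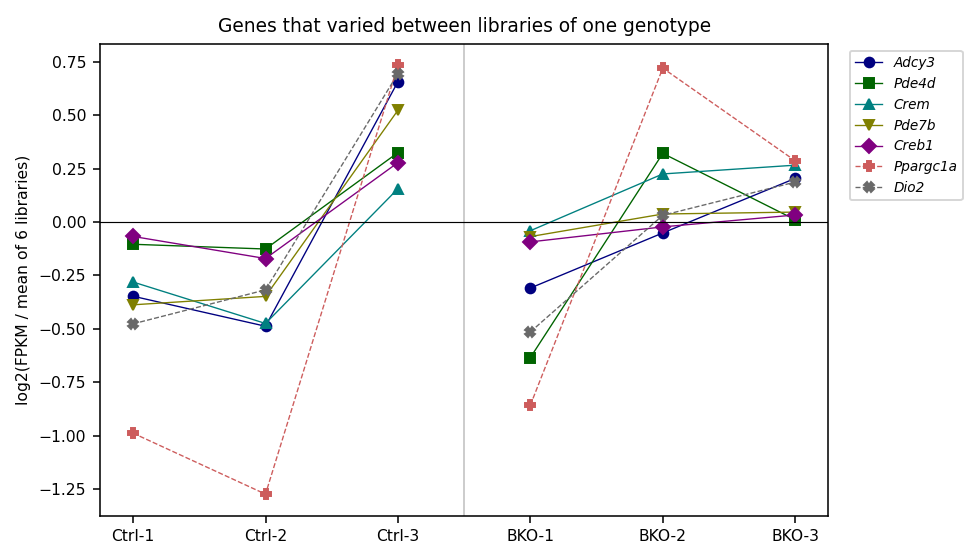
FPKM of 5 members (solid lines) and of Ppargc1a and Dio2 (dashed lines), chosen after their values were seen, in each library, as log2 of the ratio to the mean of the 6 libraries, with lines only to guide the eye. Ctrl-3 stands above Ctrl-1 and Ctrl-2 for all 7 genes, and BKO-1 below BKO-2 and BKO-3.

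The rest of the pathway was examined in lists of genes that are not members, 104 listed of which 92 were tested. None passed at a limma adjusted p below 0.05, with 46 differences positive and 46 negative, a median of 0.01, and 7 higher and 2 lower at an unadjusted p below 0.05. Over all tested genes 6.63% were higher and 3.52% lower at that level. Among 20 tested genes of receptor regulation and of beta-gamma subunits, Gng5 averaged 174 and 171 FPKM in Ctrl and BKO, and Rgs2, which limits G protein signalling, 101 and 115 FPKM. Other receptors coupled to the stimulatory G protein were sparse (7 tested, led by Pth1r at 9.48 and 8.19 FPKM, then Adora2a at 4.12 and 3.99 FPKM). Of the 3 tested receptors coupled to inhibitory G proteins, S1pr1 averaged 34.4 and 37.5 FPKM and the adenosine receptor Adora1 20.8 and 22.5 FPKM. Among genes for noradrenaline supply and clearance (4 tested), Maob, an enzyme that breaks down amines, averaged 50.6 and 48.7 FPKM.

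Effectors of cyclic AMP other than PKA, together with PKA inhibitors, numbered 8 tested genes, and in 3 of them every BKO library lay above every Ctrl library, where 9.06% of all tested genes did. They were Hcn2, Rapgef4 and Pkig, the first 2 named after their values were seen. Hcn2, a channel gated by cyclic nucleotides, stood at 0.536, 0.427 and 0.824 FPKM in Ctrl and 1.95, 2.10 and 0.961 FPKM in BKO (log2 difference 0.72, limma adjusted p = 0.289). Rapgef4, the exchange factor Epac2, stood at 0.584, 0.867 and 0.710 FPKM in Ctrl and 1.76, 1.01 and 1.17 FPKM in BKO (limma adjusted p = 0.414). Both are low, and neither passed. Their Ctrl means, 0.60 FPKM for Hcn2 and 0.72 FPKM for Rapgef4, were under 1 FPKM, so both reached testing only through BKO. The count of 3 among 8 therefore rests in part on the filter, and no conclusion is drawn from it. Pkig, a PKA inhibitor, averaged 6.55 ± 0.661 and 7.98 ± 1.11 FPKM, and Rapgef3, the more abundant Epac1, 10.1 and 10.4 FPKM. In the list of CREB partners and salt-inducible kinases (13 tested), Sik2 averaged 71.3 ± 5.76 and 59.2 ± 11.0 FPKM and Sik1 41.5 ± 5.42 and 41.2 ± 17.3 FPKM.

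Downstream, none of 20 tested cyclic AMP-induced genes and none of 7 lipolytic substrates of PKA or their partners passed. Ucp1, the uncoupling protein of brown fat, averaged 2851 and 2966 FPKM in Ctrl and BKO, and Pck1 1769 and 1547 FPKM. In the induced list 2 genes were higher and 1 lower at an unadjusted p below 0.05, which is 3 of 20 where 10.2% of all tested genes reached that level. They are named here after their values were seen. Nr4a3, an early-response nuclear receptor, stood at 10.9, 13.8 and 18.2 FPKM in Ctrl and 17.3, 24.5 and 36.7 FPKM in BKO, and Fosl2, an AP-1 subunit, at 7.33, 6.75 and 9.42 FPKM in Ctrl and 12.5, 9.38 and 16.8 FPKM in BKO. Each overlapped between the groups in 1 library pair, Ctrl-3 against BKO-1 for Nr4a3 and Ctrl-3 against BKO-2 for Fosl2. Cidea, a lipid droplet protein, stood at 1564, 1478 and 1553 FPKM in Ctrl and 1239, 1378 and 1329 FPKM in BKO, with every BKO library below the controls (limma adjusted p = 0.431). Of the substrates, Pnpla2, adipose triglyceride lipase, and Lipe, hormone-sensitive lipase, averaged 1539 and 1379 FPKM and 394 and 363 FPKM in Ctrl and BKO. Over the 7 genes, 5 differences were negative and 2 positive. In 2, Pnpla2 and Mgll, every BKO library lay below every Ctrl library, and in 1, Plin5, above. Over all tested genes 6.82% lay below and 9.06% above. Mgll was named after its values were seen. Plin5, a droplet coat protein named after its values were seen, had a higher mean in BKO, at 81.4, 77.8 and 71.8 FPKM in Ctrl and 83.9, 101.5 and 99.3 FPKM in BKO (log2 difference 0.30, limma adjusted p = 0.362). Among 11 tested genes for other anchoring proteins, Opa1 averaged 45.9 and 43.2 FPKM and Msn 31.8 and 35.3 FPKM.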

How the data were processed

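Expression was measured in 6 libraries, 3 Ctrl and 3 BKO. The submitters' processing notes name CASAVA 1.8, TopHat2 2.0.12, Cufflinks 2.2.1 and the build NCBIM37. Aligner options and gene models are not stated in the sources used here. The authors deposited FPKM per gene, so no count test was used. Columns were assigned by the sample names in the descriptions, where MT is Ctrl and WT is BKO. Values were tested as log2(FPKM + 1), which understates changes of low genes, for the 11397 genes whose mean reached 1 FPKM. The test was limma 3.58.1 (R 4.3.3), with no covariate, an intensity trend and Benjamini-Hochberg adjustment over all tested genes at 0.05, and was checked on simulated data. Ratios are of mean FPKM. Alternatives covered pseudocounts, filters, scalings, empirical Bayes settings, library weights, a muscle score, a replicate block, another threshold and leaving out each library. Intervals are limma's 95% intervals. The members and lists were chosen with earlier results of these data known. Values in every library were printed for 15 members by a rule: those at an unadjusted p below 0.05, the most abundant and the most changed of each role, and a set of well-known genes. Prkacb, Pde8a, Pde1a, Adcy7 and Hcn2, Rapgef4, Nr4a3, Fosl2, Cidea, Ppargc1a, Dio2, Plin5, Fos, Junb, Dusp1 and Nr4a2 were added after their values were seen. So were Ptger3 and Mgll, without values by library. Promoter windows came from RefSeq, and windows for the other 13 members were not used here. Values of 1 member and 1 other pathway gene are not reported here, though counts over whole lists include them.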

Additional observations from a re-analysis of the deposited data

How the results depend on the processing

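The count of members past the adjusted threshold stayed at 0 under every alternative run, including an adjusted p below 0.1. Members at an unadjusted p below 0.05 numbered 2, against 8 with array weights and 1 to 5 with 1 library left out, the fewest without Ctrl-1 or Ctrl-2 and the most without BKO-3. Over all tested genes, 18 were higher and 1 lower. The higher count was 11 with no filter, 32 with robust empirical Bayes, 48 with array weights, 8 with the muscle score as covariate, 33 at an adjusted p below 0.1, and 5 to 41 with 1 library left out. The lower count was 6 with array weights and 1 to 3 with 1 library left out. The cause was not tested. Bscl2 passed in all.

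Prkar2b kept its sign in all 17 fits (-0.29 to -0.20, adjusted p 0.131 to 0.819), as did Pde3b (-0.43 to -0.21, adjusted p 0.125 to 0.819). At an unadjusted p below 0.05, however, Prkar2b was not among the members without Ctrl-2 or BKO-1, nor Pde3b without Ctrl-1, Ctrl-3, BKO-1 or BKO-2. Without BKO-1 the 2 members were Adrb3 and Pde7a. Differences near 0 changed sign. Adcy3 was at -0.00703 with median ratio rescaling, at -0.0148 with quantile normalization, and at -0.20 to 0.36 with 1 library left out, the last without Ctrl-3. Array weights gave 0.0327 for Creb1 and 0.0497 for Prkar1a. With 1 library left out the ranges were -0.377 to 0.0292 for Adrb1, -0.10 to 0.07 for Creb1, -0.34 to 0.13 for Pde4d and -0.0617 to 0.0418 for Prkar1a.

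Of the 3 same-numbered pairs, 1 deviated together (correlations over 11397 genes of 0.196, -0.104 and -0.1), so the numbers were not taken as pairs. Ctrl-3 correlated best with BKO-2 (0.219) and Ctrl-2 with BKO-3 (0.148). With the replicate block 23 genes were higher and 2 lower over all genes. In that fit 3 members had an unadjusted p below 0.05, which is 6.38% of those tested against 9.84% of all tested genes. Depth is not known from FPKM, so counting error cannot be given.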
